A study of Mus musculus with 16 samples.

Results

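The genes described here are those of transforming growth factor beta (TGF-beta) and bone morphogenetic protein (BMP) signalling in the left ventricle (LV). They were chosen by gene name, as the table entries whose symbol starts with Tgfb, Bmp followed by a digit or by r, Bmper, Ltbp, Smad, Acvr, Gdf followed by a digit, Inhb, Fst, Grem or Smurf, or is Ski, Eng or one of the Id genes. This gave 42 of the 11811 genes in the deposited table, and the rule itself uses no measured value, although it was set with earlier results of these data known. RNA came from LV tissue of 8 TGAC8 and 8 wild-type (WT) mice, with 1 library per mouse, and the methods describe tissue taken from the free wall and not from the septum. All were males of 3 months on the C57BL/6 background. TGAC8 mice carry a cDNA of human ADCY8, a membrane adenylyl cyclase that makes cAMP, behind the mouse alpha-myosin heavy chain promoter, which is active in cardiomyocytes, and WT mice do not carry it. The comparison asked which transcripts of the pathway differ between an LV with extra cyclase activity in its myocytes and a normal one. Levels are FPKM, in which fragments are scaled by transcript length and by library size, so they can be compared between genes.

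TGF-beta ligands are secreted in a latent form that latent TGF-beta binding proteins (LTBPs) tether to the extracellular matrix. Once released, a ligand brings together a type II and a type I receptor kinase, which phosphorylate receptor-regulated SMADs. These join SMAD4 and enter the nucleus. TGF-betas and activins mainly use SMAD2 and SMAD3, whereas BMPs mainly use SMAD1 and SMAD5. Inhibitory SMADs, SMURF ubiquitin ligases and SKI damp the signal, and extracellular antagonists hold ligands away from receptors. In the heart the TGF-beta branch is known above all for activating fibroblasts and for matrix deposition, and the BMP branch for development and endothelial function.

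Of the 42 genes, 40 averaged 0.5 FPKM or more across all 16 mice and were tested with limma together with all 11544 such genes. At an adjusted p of 0.05, 16 of the 40 were higher in TGAC8 and 0 were lower. Among all tested genes 20.9% were higher and 4.65% lower by the same rule. At an unadjusted p of 0.05 the members lower in TGAC8 also numbered 0, and 20 were higher. The share of all tested genes at that unadjusted threshold was not computed, here or for the groups and lists below. The transcripts that rose most were those of the ligand Tgfb2, of the secreted follistatin-like proteins Fstl4 and Fstl1, of the LTBP gene Ltbp3 and of the BMP-binding protein Bmper. The SMADs that carry the signal and the Id genes did not pass the test in either direction. The fold changes ran from -0.15 for Acvr1b to 0.94 for Fstl4 on the log2 scale of FPKM + 0.1.

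The scale between libraries bears on this count. As deposited, the median of the log2 fold changes over all tested genes was 0.12 and 73.4% of them were above 0, against 35 of the 40 members with a median of 0.20. When each library was divided by a geometric size factor the median of all genes became 0.0079, and 51.5% were above 0, against 29 of the 40 members with a median of 0.082. On that scale 10 members were higher and 2, Smad4 and Bmpr2, were lower, where 9.78% of all tested genes were higher and 10.7% lower. Quantile normalization gave 9 higher and the same 2 lower, where 9.16% and 9.13% of all tested genes were. The 10 genes higher on both scales were Tgfb2, Ltbp3, Ltbp4, Fstl1, Fstl4, Bmper, Acvr1, Tgfbr2, Ski and Bmp1. The 6 genes called only as deposited were Tgfb3, Tgfbr1, Tgfbr3, Smad7, Bmp2k and Tgfbrap1. The libraries did not overlap for 8 members, each with every TGAC8 library above every WT library, and this held for 4.79% of all tested genes. No member had every TGAC8 library below every WT library, which held for 1.13% of all tested genes.

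**Figure D1:**
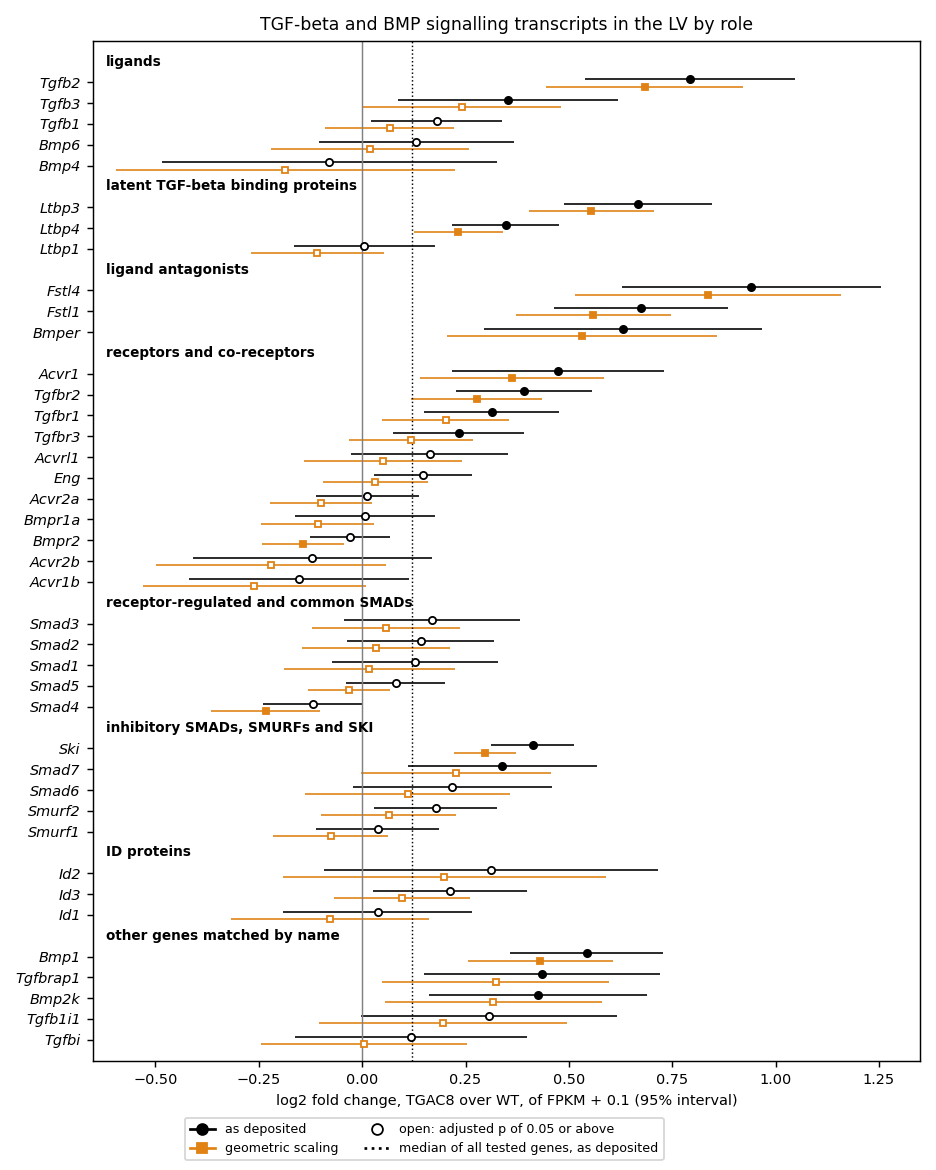
Log2 fold change of FPKM + 0.1, TGAC8 over WT, for the 40 tested genes grouped by role, with 95% intervals from limma over 8 and 8 mice, as deposited (black circles) and after geometric scaling (orange squares). Filled symbols have an adjusted p below 0.05, and the dotted line is the median of all tested genes as deposited (0.12). The genes of the group labelled ligand antagonists (Fstl4, Fstl1 and Bmper), Tgfb2 and Ltbp3 lie farthest to the right. Smad1, Smad2, Smad3 and Smad5 sit around the dotted line.

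Facts of the whole series touch these values as follows. The human ADCY8 transcript ranged from 411 to 602 FPKM in the TGAC8 libraries, was 0 in 7 WT libraries and was 0.345 FPKM in WT replicate 2. The sum of all FPKM was 314283 to 374087 in TGAC8 and 356854 to 407506 in WT. TGAC8 replicate 5 had the highest deposited FPKM of its genotype for 11 of the 16 called members. How often it was the highest over all tested genes was not computed. Its geometric size factor was 1.099, against 0.973 to 1.115 over the TGAC8 libraries. Without TGAC8 replicate 5, 13 members were higher and 0 lower, where 17.5% and 4.44% of all tested genes were. Without WT replicate 2 the counts were 14 and 0, against 18.6% and 4.1% of all tested genes. Without TGAC8 replicate 4 they were 15 and 0, against 20.5% and 4.18%. Fibroblast and macrophage marker lists were also higher in TGAC8, and their values stand at the end. In bulk tissue, a change in the number of cells of a type and a change in RNA per cell cannot be told apart.

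Among the ligands Tgfb2 rose and Tgfb1, the most abundant of them, did not pass the test. Tgfb2 (chromosome 1, 186622792 to 186705989, minus strand, mm10) encodes TGF-beta 2, which needs the co-receptor TGFBR3 for good binding to the type II receptor. Its WT libraries lay between 0.887 and 1.63 FPKM with a median of 1.27, and its TGAC8 libraries between 1.78 and 2.996 FPKM with a median of 2.21. All 8 TGAC8 mice were above all 8 WT mice. Tgfb2 thus had a log2 fold change of 0.79 (SE 0.121, limma adjusted p = 0.000129), and 0.68 after geometric scaling (adjusted p = 0.000276).

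Tgfb1 encodes the TGF-beta isoform that is made by most cell types. It ranged from 4.11 to 5.65 FPKM in WT with a median of 4.45, and from 4.75 to 6.41 FPKM in TGAC8 with a median of 5.002. The groups overlapped, with 2 TGAC8 libraries above the highest WT library, and the log2 difference of 0.18 had an adjusted p of 0.0889. Tgfb3, the remaining isoform, ranged from 2.06 to 2.78 FPKM in WT (median 2.26) and from 1.996 to 4.09 FPKM in TGAC8 (median 3.34). Its lowest TGAC8 library was under every WT library, while 6 TGAC8 libraries were above every WT library. Its adjusted p of 0.0495 was just under the threshold and rose to 0.0519 without WT replicate 2, to 0.0992 without TGAC8 replicate 5 and to 0.157 after geometric scaling.

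The BMP ligands in the table gave no call. Bmp6 averaged 3.49 ± 0.645 FPKM in TGAC8 and 3.15 ± 0.369 in WT (SD, n = 8 each; limma adjusted p = 0.41). Bmp4 averaged 1.14 ± 0.377 FPKM in TGAC8 and 1.19 ± 0.339 in WT, with wholly overlapping libraries (limma adjusted p = 0.795). Inhba, the activin A subunit, was under the level needed for the test. It ran from 0.423 to 0.934 FPKM in TGAC8 with a median of 0.582, and from 0.124 to 0.482 FPKM in WT with a median of 0.286. In a fit with no filter on low values its log2 difference was 0.89 (adjusted p = 0.0043), where 20.7% of all genes in that fit were higher and 4.56% lower.

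Among the LTBP genes, 2 of the 3 tested rose on both scales. Of all tested genes 20.9% were higher as deposited and 9.78% after geometric scaling. Ltbp3 (chromosome 19, 5740904 to 5758532) encodes a protein that binds latent TGF-beta and is required for its secretion in several cell types. Its libraries ran from 2.66 to 4.12 FPKM in WT (median 3.36) and from 4.44 to 6.21 FPKM in TGAC8 (median 5.55), with no overlap. The log2 fold change of Ltbp3 was 0.67 (SE 0.085, adjusted p = 2.13e-05).

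Ltbp4, which binds latent TGF-beta 1 and takes part in elastic fibre assembly, was the most abundant of all 42 transcripts. It ran from 20.9 to 24.3 FPKM in WT (median 22.7) and from 24.5 to 34.7 FPKM in TGAC8 (median 28.5), again with no overlap, although the highest WT and lowest TGAC8 libraries were close. For Ltbp4 the log2 fold change was 0.35 (SE 0.062, adjusted p = 0.000511). Ltbp1, the best known carrier of latent TGF-beta in matrix, averaged 6.23 ± 0.810 FPKM in TGAC8 and 6.18 ± 0.587 in WT. Its log2 difference was 0.01, with a 95% interval from -0.16 to 0.18. Ltbp2, which does not bind latent TGF-beta but shares the fold, was under the filter. It ran from 0.217 to 1.77 FPKM in TGAC8 (median 0.590) and from 0.108 to 0.454 FPKM in WT (median 0.239), and 6 TGAC8 libraries were above every WT library. With no filter on low values the log2 difference of Ltbp2 was 1.17 (adjusted p = 0.00896), larger than that of any tested member.

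All 3 secreted antagonists or follistatin-like proteins in the table rose on both scales. The shares of all tested genes that were higher were 20.9% as deposited and 9.78% after geometric scaling. Fstl1 (chromosome 16, 37776873 to 37836514), a secreted glycoprotein made mainly by mesenchymal cells, was the second most abundant member. WT libraries were tightly grouped between 14.2 and 15.97 FPKM (median 15.2), while TGAC8 libraries were spread from 17.7 to 34.5 FPKM (median 23.5). The groups did not overlap, and the SD was 5.24 FPKM in TGAC8 against 0.694 in WT. Fstl1 had a log2 fold change of 0.67 (SE 0.1003, adjusted p = 0.0001).

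Fstl4, a related secreted protein with a follistatin domain whose ligands are less well described, had the largest fold change of the tested members. It ran from 0.553 to 0.930 FPKM in WT (median 0.717) and from 1.15 to 2.63 FPKM in TGAC8 (median 1.41), with no overlap. The top value belonged to TGAC8 replicate 4 and stood apart from the next, 1.53 FPKM. For Fstl4 the log2 fold change was 0.94 (SE 0.149, adjusted p = 0.000183), and 0.83 without that library. Bmper, a secreted protein that binds BMPs and tunes their action, was near the filter. Its WT mean of 0.453 FPKM was under 0.5 FPKM, so it entered the test through its TGAC8 libraries (mean 0.761). In the limma fit with no filter on low values its adjusted p was 0.00514. It ran from 0.336 to 0.600 FPKM in WT (median 0.458) and from 0.491 to 1.06 FPKM in TGAC8 (median 0.741), so the groups overlapped by a few libraries. Its log2 fold change was 0.63 (adjusted p = 0.00788) and it missed the threshold under quantile normalization, with an adjusted p of 0.0587.

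**Figure D2:**
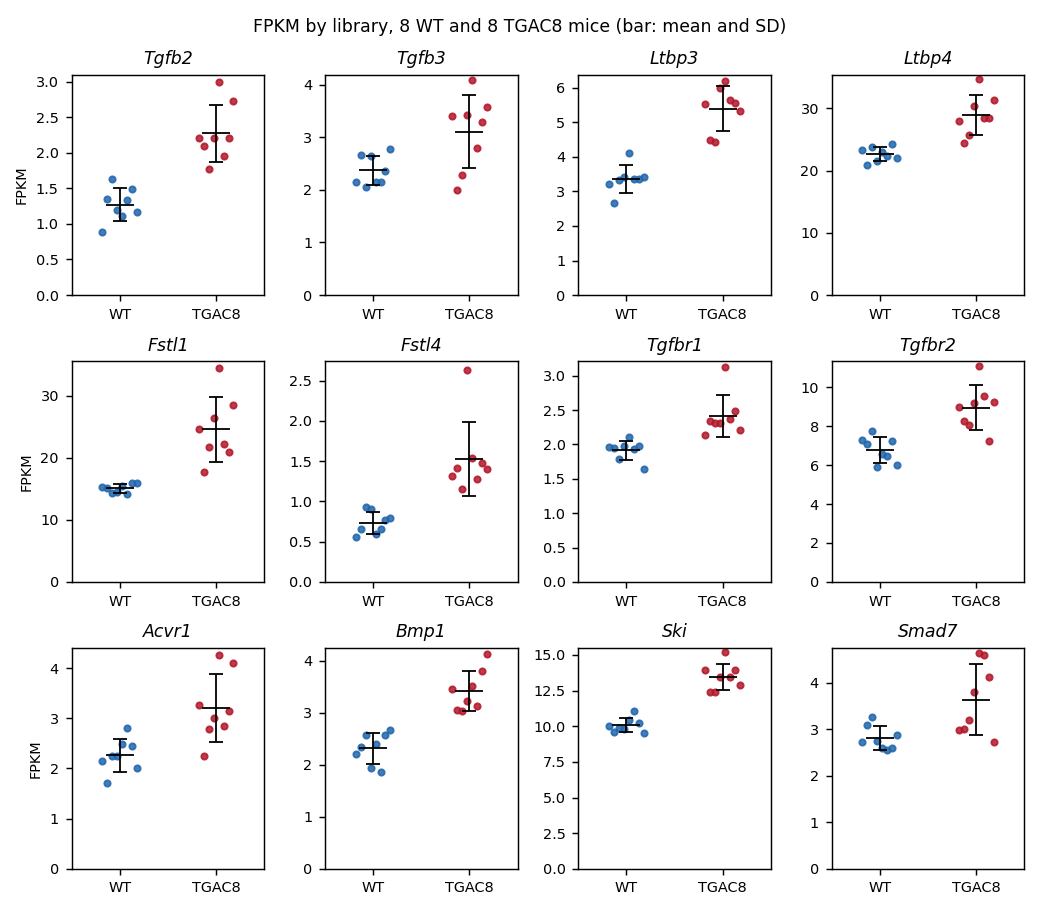
FPKM of 12 members in each of the 8 WT (blue) and 8 TGAC8 (red) libraries, with the mean and SD as bars and linear axes from 0. Tgfb2, Ltbp3, Ltbp4, Fstl1, Fstl4, Tgfbr1, Bmp1 and Ski separate the genotypes completely, while Tgfb3, Tgfbr2, Acvr1 and Smad7 overlap.

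Since the transgene raises a cAMP-forming enzyme, the letters of the promoter windows were searched for the cAMP response element that the factor CREB binds. The windows were the 250 bases before each RefSeq transcript start, in build GRCm38.p6, and 33 of the 42 members had at least 1, giving 40 windows. The full palindrome TGACGTCA was in the windows of 2 members, Fstl4 and Ltbp1, that is 5% of the member windows, against 1.55% of all 32851 windows and 2.59% of those of tested genes. Its part TGACG, on either strand and so contained in each full palindrome, was in 20% of member windows and in 26.7% of those of tested genes. The SMAD-binding letters CAGACA, on either strand, were in 12.5% of member windows and in 13.1% of those of tested genes. The palindrome GGCGCC, bound by SMAD1 and SMAD5, was in 30% of member windows and in 16.7% of those of tested genes. Windows of the same gene can overlap, so these shares do not count separate promoters. The overlapping Ltbp4 windows hold the same GGCGCC. The windows below are shown because 2 of them hold the full element in the gene with the largest fold change and in one near 0, and the other belongs to the ligand that rose. Capitals mark matches to these motifs, and each sequence is from RefSeq, 5′ to 3′ on the strand of the gene.
Tgfb2, chr1:186705990-186706239, minus strand: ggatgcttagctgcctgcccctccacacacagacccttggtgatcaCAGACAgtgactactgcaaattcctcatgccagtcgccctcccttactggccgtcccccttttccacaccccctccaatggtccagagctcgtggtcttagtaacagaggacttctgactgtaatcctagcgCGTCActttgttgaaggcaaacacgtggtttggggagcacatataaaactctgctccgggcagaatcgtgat
Fstl4, chr11:52764456-52764636, plus strand: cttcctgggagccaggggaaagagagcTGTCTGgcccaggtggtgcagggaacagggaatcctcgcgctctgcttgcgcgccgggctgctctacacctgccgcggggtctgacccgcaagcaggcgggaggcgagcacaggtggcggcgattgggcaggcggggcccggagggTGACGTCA
Ltbp1, chr17:75005279-75005528, plus strand: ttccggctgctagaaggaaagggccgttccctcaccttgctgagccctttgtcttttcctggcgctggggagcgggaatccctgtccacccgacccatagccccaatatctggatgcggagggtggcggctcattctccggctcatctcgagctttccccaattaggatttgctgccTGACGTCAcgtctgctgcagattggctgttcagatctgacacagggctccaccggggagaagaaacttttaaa
The Tgfb2 window holds CAGACA from 204 to 199 bases before the start and TGACG, read on the other strand, from 72 to 68 bases before it. Of its 250 bases, 167 lie in an exon of the antisense gene Gm29491 in GENCODE vM21. The Fstl4 element lies 77 to 70 bases before the RefSeq start, and GENCODE places the start of the gene at 52764634, inside the element, so the sequence ends there. The Ltbp1 element lies 73 to 66 bases before the start. Ltbp1 has a further RefSeq window, at chr17:75178531-75178780, without TGACG on either strand, and its FPKM is given per gene. The 8 letters thus occur in a window of a gene with a log2 fold change of 0.94 and in a window of one with 0.01. A match of letters does not show that a factor binds, and whether the element bears on either level was not tested.

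Of the 11 receptors and co-receptors, 4 rose as deposited and 2, Tgfbr2 and Acvr1, on both scales. By the same rule 20.9% of all tested genes were higher as deposited and 9.78% after geometric scaling. Tgfbr2, the type II receptor of all TGF-betas, ran from 5.88 to 7.74 FPKM in WT (median 6.82) and from 7.26 to 11.1 FPKM in TGAC8 (median 9.09). In 7 of 8 TGAC8 mice it was above every WT mouse. The log2 fold change of Tgfbr2 was 0.39 (SE 0.079, adjusted p = 0.00149), and 0.28 after geometric scaling (adjusted p = 0.0137). Tgfbr1, its type I partner, ran from 1.64 to 2.102 FPKM in WT (median 1.95) and from 2.14 to 3.13 FPKM in TGAC8 (median 2.33), with no overlap but with neighbouring extremes. Its log2 fold change was 0.31 (adjusted p = 0.00655) as deposited and 0.20 (adjusted p = 0.0584) after geometric scaling. Tgfbr3, the co-receptor betaglycan, averaged 7.76 ± 1.08 FPKM in TGAC8 and 6.54 ± 0.338 in WT (log2 fold change 0.23, adjusted p = 0.0313), and 0.12 after geometric scaling (adjusted p = 0.272). It also missed the threshold without WT replicate 2 (adjusted p = 0.057) and without TGAC8 replicate 5 (adjusted p = 0.059).

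Acvr1, a type I receptor for BMPs that also binds activin complexes, ran from 1.71 to 2.80 FPKM in WT (median 2.24) and from 2.25 to 4.27 FPKM in TGAC8 (median 3.08). In 6 of 8 TGAC8 mice it was above every WT mouse, and the log2 fold change was 0.47 (SE 0.121, adjusted p = 0.00861). The other BMP and activin receptors did not rise. Bmpr2, the type II BMP receptor, lay between 8.92 and 10.1 FPKM in TGAC8 (median 9.40) and between 9.05 and 10.98 FPKM in WT (median 9.44). Its log2 difference was -0.03 (adjusted p = 0.68) as deposited and -0.14 (adjusted p = 0.0385) after geometric scaling. Bmpr1a averaged 8.67 ± 1.19 FPKM in TGAC8 and 8.59 ± 0.729 in WT, and the interval of its log2 difference ran from -0.16 to 0.18. Acvr2a, Acvr2b and Acvr1b, which serve activins and related ligands, had log2 differences of 0.01, -0.12 and -0.15, none past the test.

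Eng, the co-receptor endoglin of endothelial cells, was the most abundant receptor transcript at 19.4 ± 1.44 FPKM in TGAC8 and 17.5 ± 1.42 in WT (SD, n = 8 each). Its log2 difference of 0.15 had a limma adjusted p of 0.062, and it was 0.03 after geometric scaling. Acvrl1, the endothelial type I receptor that works with endoglin, averaged 4.22 ± 0.639 and 3.74 ± 0.351 FPKM (limma adjusted p = 0.196). Neither of these endothelial transcripts passed the test on either scale.

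The 5 SMADs that carry the signal gave no call as deposited, and at an unadjusted p of 0.05 limma also found 0 of them in either direction. Smad1, Smad2, Smad3 and Smad5 had log2 differences of 0.13, 0.14, 0.17 and 0.08, which are close to the 0.12 of the median gene. Smad4, the common partner, was the most abundant of them. It ran from 6.75 to 8.35 FPKM in TGAC8 (median 7.34) and from 7.42 to 9.09 FPKM in WT (median 8.12), so that no TGAC8 library exceeded the WT range and 4 of 8 were under it. Its log2 difference was -0.12 (adjusted p = 0.138) as deposited and -0.23 (adjusted p = 0.0126) after geometric scaling.

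Among the negative regulators Ski had the smallest adjusted p of all members. SKI is a nuclear co-repressor that binds SMADs and holds their target genes silent. Ski ran from 9.52 to 11.1 FPKM in WT (median 9.96) and from 12.4 to 15.2 FPKM in TGAC8 (median 13.4), with no overlap and a gap between the groups larger than the WT SD of 0.509. The log2 fold change of Ski was 0.41 (SE 0.048, adjusted p = 8.8e-06), and 0.30 after geometric scaling (adjusted p = 1.17e-05). Smad7, which blocks TGF-beta receptors and is itself a target of the pathway, ran from 2.55 to 3.27 FPKM in WT (median 2.74) and from 2.73 to 4.64 FPKM in TGAC8 (median 3.496). The groups overlapped in 4 of 8 TGAC8 mice, and its log2 fold change of 0.34 (adjusted p = 0.0296) missed the threshold without TGAC8 replicate 5 (adjusted p = 0.0604) and after geometric scaling (adjusted p = 0.162). Smad6, which acts mainly on the BMP branch, had a log2 difference of 0.22 (adjusted p = 0.173). The ubiquitin ligase genes Smurf2 and Smurf1 had 0.18 (adjusted p = 0.073) and 0.04 (adjusted p = 0.737).

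The Id genes encode inhibitors of basic helix-loop-helix factors and are classic targets of BMP signalling. None of the 3 passed the limma test, and 1, Id3, was higher at an unadjusted p of 0.05. Id3, the most abundant, averaged 17.1 ± 2.31 FPKM in TGAC8 and 14.7 ± 1.58 in WT (log2 difference 0.21, limma adjusted p = 0.0881). Id1 averaged 9.58 ± 1.68 and 9.28 ± 1.27 FPKM, and its log2 difference of 0.04 changed sign after geometric scaling. Id2 ran from 1.92 to 5.82 FPKM in TGAC8 (median 3.25) and from 1.87 to 3.12 FPKM in WT (median 2.37), and the top value was that of TGAC8 replicate 5 alone.

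The name rule also took in 5 genes that are not core parts of the pathway. As deposited, 3 of them were higher, where 20.9% of all tested genes were. After geometric scaling 1 was higher, where 9.78% of all tested genes were. Bmp1 encodes a metalloproteinase that trims procollagens and frees latent TGF-beta and BMPs, and despite its name it is not a BMP ligand. It ran from 1.86 to 2.67 FPKM in WT (median 2.37) and from 3.03 to 4.12 FPKM in TGAC8 (median 3.34). No libraries overlapped, and the log2 fold change of Bmp1 was 0.54 (SE 0.088, adjusted p = 0.000221) and 0.43 after geometric scaling (adjusted p = 0.00115). Tgfbrap1, an endosomal protein that binds TGF-beta receptors, and Bmp2k, a kinase named for its induction by BMP2, had log2 fold changes of 0.43 and 0.43 as deposited. Both fell short after geometric scaling, with adjusted p of 0.0924 and 0.0832. Tgfbi, a secreted matrix protein named for induction by TGF-beta, averaged 4.60 ± 1.11 FPKM in TGAC8 and 4.16 ± 0.574 in WT (adjusted p = 0.543). Tgfb1i1, a focal adhesion protein also called Hic-5, had a log2 difference of 0.31 (adjusted p = 0.137).

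Ratios between members of the same library do not depend on the scale between libraries, and 6 of them were tested with 2-sided exact permutation tests over the 16 libraries, with Benjamini-Hochberg adjustment over the 6. The ratio of Tgfb2 to Tgfb1 was 0.429 in TGAC8 and 0.272 in WT as a geometric mean. The log2 ratio ran from -1.47 to -0.82 in TGAC8 and from -2.32 to -1.59 in WT, without overlap. The difference was 0.66 (exact permutation p = 0.000155, the smallest that 8 against 8 can give, adjusted 0.000932). In the summed FPKM of the Tgfb ligands, Tgfb2 made up 21.4% ± 1.95 in TGAC8 and 15.3% ± 2.22 in WT, while Tgfb1 made up 49.7% ± 3.74 and 55.9% ± 3.52. The share of Tgfb3 was 28.9% ± 3.31 and 28.7% ± 3.56.

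The ratio of Tgfbr2 to Bmpr2 was 0.947 in TGAC8 and 0.705 in WT. Its log2 difference was 0.43 (exact permutation p = 0.000466, adjusted 0.0014), with slight overlap. The remaining ratios did not pass. They were Tgfb3 to Tgfb1 (log2 difference 0.18), inhibitory to receptor-regulated SMADs (0.19) and Tgfbr1 to Acvrl1 (0.16), each with an adjusted exact permutation p of 0.238. The last was BMP SMADs to TGF-beta SMADs, with a log2 difference of -0.06 (adjusted exact permutation p = 0.362). For inhibitory over receptor-regulated SMADs the log2 ratios ran from -1.60 to -0.79 in TGAC8 and from -1.61 to -0.99 in WT, so the ranges nearly coincided at the low end.

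**Figure D3:**
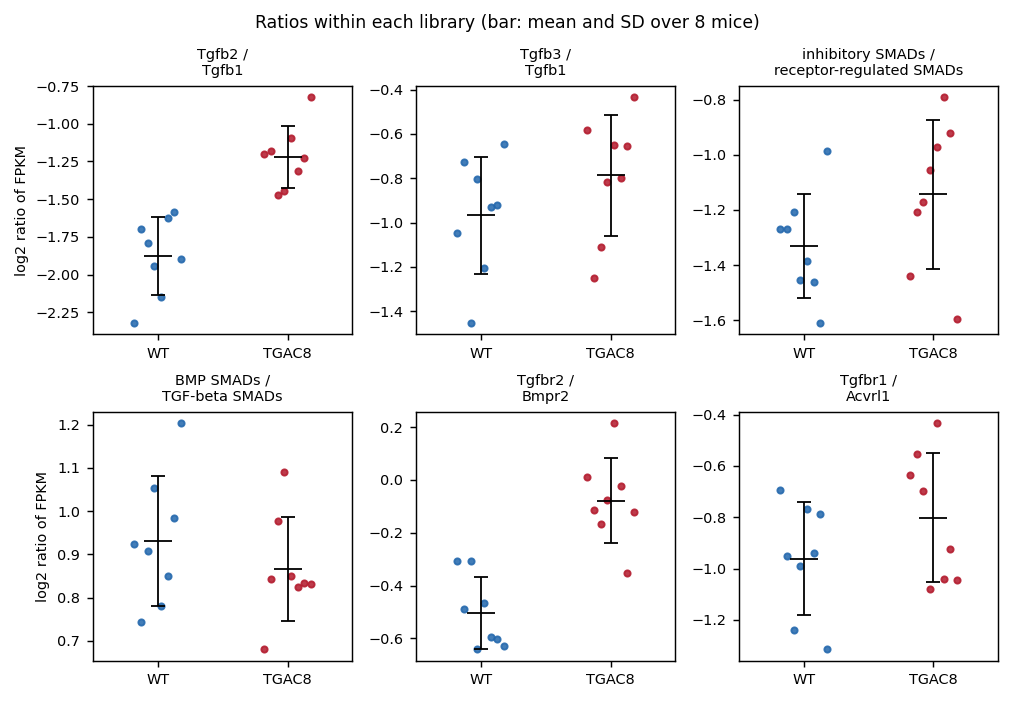
Log2 ratio of FPKM within each library for 6 pairs of members or sums of members, in 8 WT (blue) and 8 TGAC8 (red) mice, with the mean and SD as bars. Tgfb2 over Tgfb1 separates the genotypes, Tgfbr2 over Bmpr2 nearly does, and the other 4 overlap broadly.

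The size of the difference varied between TGAC8 mice. Over the 16 called members, the median deviation of a library from the WT mean ran from 0.30 in replicate 3 to 0.71 in replicate 5 on the log2 scale. After geometric scaling these medians ran from 0.27 in replicate 3 to 0.52 in replicate 5. These 16 were chosen for being higher in TGAC8, so the direction of the medians is given by that choice. In WT libraries the medians lay between -0.043 and 0.081. Fstl1, Tgfb2, Tgfbr1, Acvr1 and Id2 were all highest in replicate 5.

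**Figure D4:**
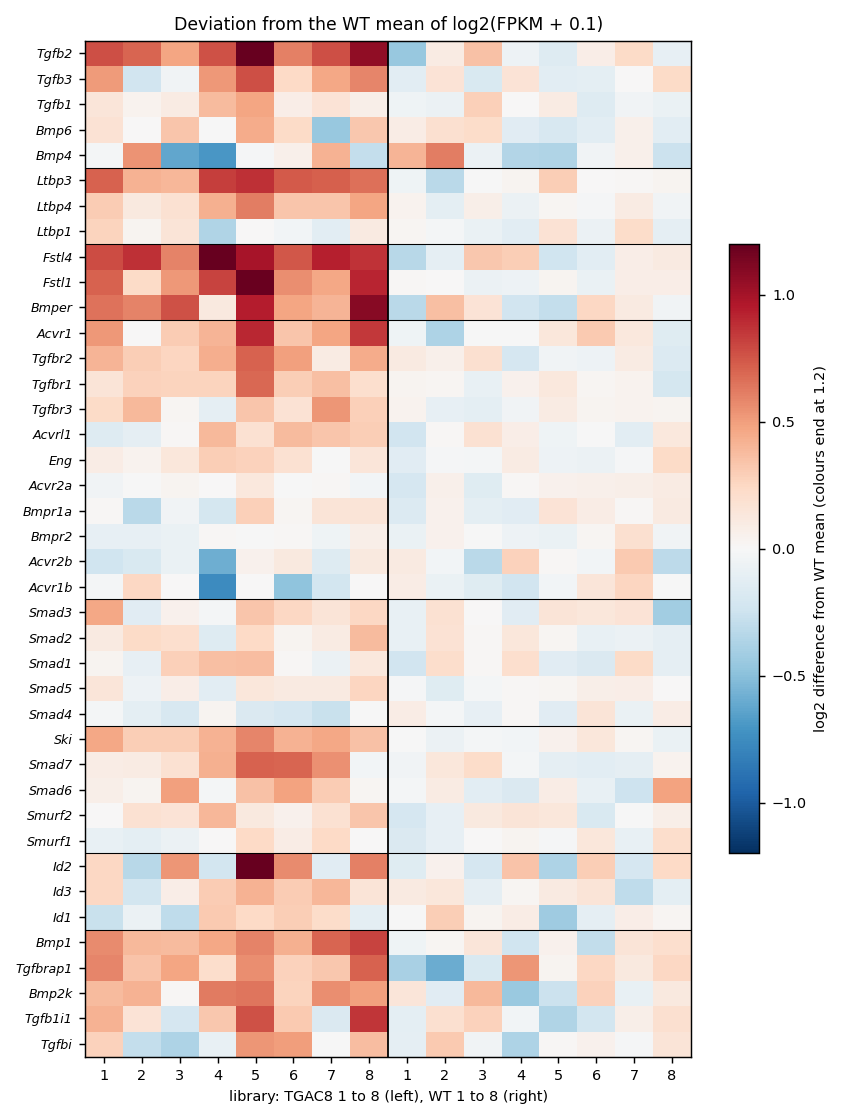
Deviation of log2(FPKM + 0.1) from the WT mean for the 40 tested members (rows, by role) in the TGAC8 libraries 1 to 8 (left) and the WT libraries 1 to 8 (right), with red above and blue below the WT mean and colours ending at 1.2. The rows of Tgfb2, Ltbp3, Fstl4, Fstl1 and Bmp1 are red across all 8 TGAC8 libraries, and the column of TGAC8 replicate 5 is the deepest red.

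Other genes of the pathway were read from lists chosen for their known roles. Of 17 tested extracellular regulators, 12 were higher as deposited and 0 lower by limma, with 0 lower at an unadjusted p of 0.05 as well. Among all tested genes 20.9% were higher and 4.65% lower. On the geometric scale 10 were higher and 1 lower, against 9.78% and 10.7% of all tested genes. Their median log2 difference was 0.46, and 0.34 after geometric scaling, against 0.12 and 0.0079 for all tested genes. Bambi, a decoy receptor that lacks a kinase, went from 1.12 ± 0.156 FPKM in WT to 2.16 ± 0.209 in TGAC8 (log2 fold change 0.90, limma adjusted p = 1.49e-06). Thbs1, a matricellular protein that can free TGF-beta from its latent complex, rose by 0.81 on the log2 scale (adjusted p = 0.0137), although its lowest TGAC8 library, at 0.622 FPKM, was under the WT range. Bgn, a matrix proteoglycan that binds TGF-beta, rose by 0.71 (adjusted p = 0.000171). Furin, the protease that cuts TGF-beta precursors, rose by 0.46 (adjusted p = 1.29e-05), and was named after its value was seen. Hfe2, the BMP co-receptor hemojuvelin, was the most abundant regulator without a call, at 51.2 ± 4.95 FPKM in TGAC8 and 48.9 ± 2.81 in WT.

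Of 31 tested intracellular regulators, 8 were higher as deposited and 0 lower, with 0 lower at an unadjusted p of 0.05 and 15 higher. The 8 higher at the adjusted threshold are 25.8%, near the 20.9% of all tested genes. On the geometric scale 6 were higher and 1, Usp15, was lower (adjusted p = 0.0111), against 9.78% and 10.7% of all tested genes. Their median log2 difference of 0.13 was near that of all tested genes. Dab2, an endocytic adaptor that binds TGF-beta receptors and SMADs, rose by 0.38 on the log2 scale (adjusted p = 0.00054). Skil, the close relative of Ski, rose by 0.34 (adjusted p = 0.00545), and Zeb2, a SMAD-binding repressor, by 0.32 (adjusted p = 0.000259).

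Genes known as transcriptional targets of TGF-beta did not move as one. Of 19 tested, 9 were higher on either scale and 0 were lower as deposited, where limma found 1 lower at an unadjusted p of 0.05. Of all tested genes 20.9% were higher as deposited and 9.78% after geometric scaling. The median log2 difference was 0.47, and 0.36 after geometric scaling. Cilp, a matrix protein of activated cardiac fibroblasts, ran from 2.40 to 13.97 FPKM in TGAC8 and from 0.668 to 1.95 in WT, a log2 fold change of 1.83 (adjusted p = 0.000393). Postn, another such matrix protein, gained 1.19 on that scale (adjusted p = 0.000293), and Acta2, smooth muscle actin, 1.14 (adjusted p = 0.000106). The collagen genes Col3a1 and Col1a1 rose by 1.06 and 0.84, and the fibronectin gene Fn1 by 0.78. Ctgf, the connective tissue growth factor gene, was by contrast at 9.90 ± 3.11 FPKM in TGAC8 and 12.4 ± 1.36 in WT. Its log2 difference was -0.38 (adjusted p = 0.0891) as deposited and -0.50 (adjusted p = 0.027) after geometric scaling. Timp3 was the most abundant of those without a call, with a log2 difference of 0.11. Col1a1, Col3a1, Fn1 and Ctgf were named after their values were seen.

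Marker lists of cells other than cardiomyocytes differed in how many genes were called. The shares of all tested genes were 20.9% higher and 4.65% lower as deposited, and 9.78% and 10.7% after geometric scaling. Of 11 fibroblast markers 9 were higher as deposited and 8 after geometric scaling, 0 were lower on either scale, and limma found 0 lower at an unadjusted p of 0.05. Their summed level was 358 to 530 FPKM in TGAC8 and 293 to 333 in WT. The largest parts of this sum were Gsn (mean 258 FPKM in TGAC8 and 185 in WT) and Vim (100 and 66.2). Gsn was named after its value was seen. The matrix genes Mfap5 and Lum and the intermediate filament gene Vim rose by 1.16, 0.73 and 0.59 on the log2 scale, and the fibroblast transcription factor gene Tcf21 had a difference of 0.45 (adjusted p = 0.0746). Of 11 macrophage and monocyte markers 9 were higher as deposited and 7 after geometric scaling, and their sum was 85.3 to 113 FPKM in TGAC8 and 58.3 to 86.2 in WT. Ms4a7, Ctss and Cd68 rose by 1.47, 0.80 and 0.79 on the log2 scale, and Cd163, a marker of resident macrophages, had a difference of 0.04 (adjusted p = 0.86). Ms4a7 averaged 0.4999 FPKM in WT and 1.52 in TGAC8, so it entered the test through its TGAC8 libraries. No fibroblast or macrophage marker was at 0 in any library. The part of these cells in the levels of Tgfb2, Fstl1, Ltbp3 and the other members was not tested. Of 12 endothelial markers, such as Cdh5 and Pecam1, limma called 0 in either direction on either scale, with 0 at an unadjusted p of 0.05 as deposited, and their sum was 155 to 202 FPKM in TGAC8 and 165 to 185 in WT. Smooth muscle and pericyte markers gave 3 of 10 higher as deposited and 2 after geometric scaling, Acta2 among them, and 0 lower on either scale. The defining marker Cnn1 was at 0 in 1 library and averaged 0.433 FPKM in TGAC8 and 0.635 in WT. Its log2 difference was -0.60 (adjusted p = 0.225), and those of Tagln and Kcnj8 were 0.0066 and -0.03, also without a call. The values of Cnn1, Tagln and Kcnj8 were added after they were seen. Cspg4 and Notch3 had log2 fold changes of 0.41 and 0.26, and Rgs5 0.06 (adjusted p = 0.436).

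Cardiomyocyte markers, read as a check of the labelled tissue, summed to 24874 to 30068 FPKM in TGAC8 and 30400 to 32938 in WT. Of 9, 1 was higher and 3 were lower as deposited, and 6 were lower after geometric scaling. The shares of all tested genes were 20.9% higher and 4.65% lower as deposited, and 9.78% and 10.7% after geometric scaling. Ryr2, the release channel of the sarcoplasmic reticulum, rose by 0.48, and the myosin light chain genes Myl3 and Myl2 fell by 0.50 and 0.37 on the log2 scale. Tnnt2, cardiac troponin T, had a difference of -0.10 (adjusted p = 0.232). The platelet and erythroid list had 1 of 6 higher as deposited, Pf4, and 0 after geometric scaling, and the haemoglobin gene Hbb-bs had a log2 difference of 0.15 (adjusted p = 0.612). The only mesothelial marker in the table, Wt1, gave no call.

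**Figure D5:**
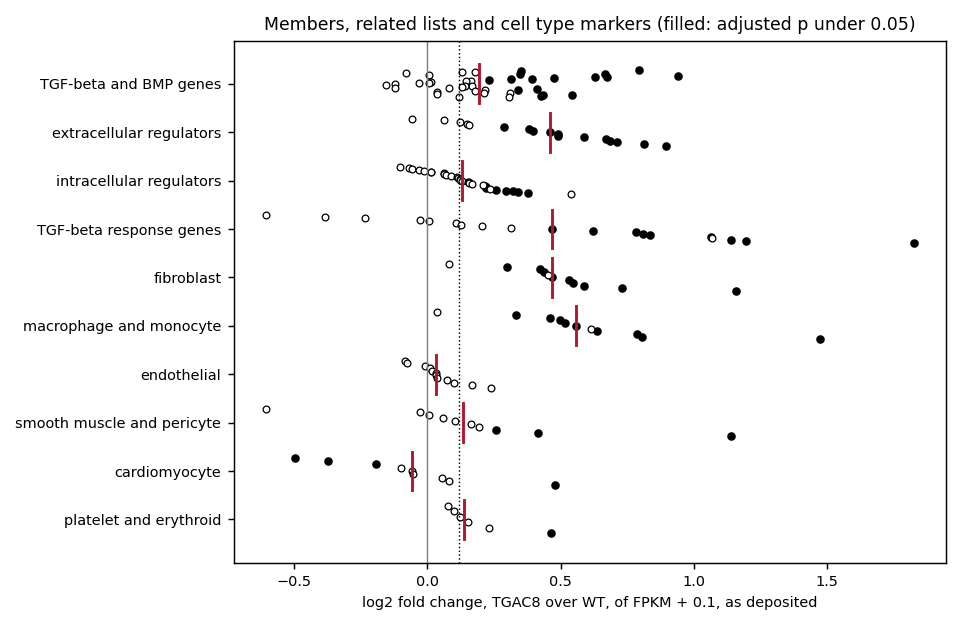
Log2 fold change of FPKM + 0.1 as deposited, TGAC8 over WT, for the members, the related lists and the cell type markers, 1 point per gene, filled where the adjusted p is below 0.05. Red bars are list medians (0.20 for the members, 0.46 for the extracellular regulators) and the dotted line is the median of all tested genes (0.12). Endothelial points cluster near 0, and fibroblast and macrophage points lie mostly to the right.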

How the data were processed

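RNA of LV tissue was sequenced from 8 TGAC8 and 8 WT mice, each library a separate mouse. According to the methods, stranded total RNA libraries were read from a single end, trimmed and aligned to a reference of mm10 plus the cDNA of human ADCY8. The submitters' processing notes name TopHat2 2.1.1, and the paper another version. The authors computed the deposited FPKM of each library with Cufflinks 2.1.1. The deposited table also holds the authors' Cuffdiff comparison of the genotypes (FPKM per genotype, fold changes, p-values, q-values and calls), which was not used. Which gene models were counted, and whether strand was used, is not given in these sources. Overlapping genes and paralogs may therefore share reads, and 15 members share exon positions with another gene in GENCODE vM21. A few single-gene values were left out of the text. FPKM carry no counts, and low values showed no steps of whole reads, so the depth behind each value is unknown and precision was read from the spread between mice.

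A gene entered the test when its FPKM averaged 0.5 or more across all 16 mice, which held for 11544 of 11811. The test was limma 3.58.1 (R 4.3.3), 2-sided and with a trend of the variance on the level, run on the log2 of FPKM plus a pseudocount of 0.1. Benjamini-Hochberg adjustment covered every tested gene, at 0.05. For genes near the pseudocount the log2 fold changes come out too small. The script was tested on simulated data. Geometric scaling divides each library by the median ratio of its genes to their geometric means. Ratios of members were tested with exact permutation tests in Python 3.11.15 with scipy 1.17.1. A planned ratio of follistatins to activin subunits was dropped because Fst and Fstl3 were not analysed here. Smad9, Gdf15, Grem1 and Id4 were not analysed here either, and SMAD sums lack Smad9.

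The rule for the members and all lists were set with earlier results of these data known. Named were every member called on either scale, the 2 most abundant members of each role, and of each other list the 3 called genes with the largest change and the most abundant gene without a call. Alternatives were pseudocounts of 1 and 0.01, other filters, geometric and quantile scaling, no variance trend, the library number as a block, and the fit without WT replicate 2. The fits without TGAC8 replicate 5 or 4 were added after seeing the data.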

Additional observations from a re-analysis of the deposited data

Results flagged for a closer look

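In 96 groups of 8 libraries, 1 per gene and genotype or ratio, the highest or lowest library was compared with its nearest neighbour by Dixon's criterion, and chance alone marks about 1 group in 20. It marked 7. TGAC8 replicate 5 stood above its genotype for Tgfbr1 (3.13 FPKM), Acvr2a (2.69 FPKM) and Id2 (5.82 FPKM). TGAC8 replicate 4 stood apart for Fstl4 (2.63 FPKM, the next library being at 1.53). Among WT mice, replicate 7 stood apart for Bmpr2 (10.98 FPKM), replicate 8 for Smad6 (1.95 FPKM) and replicate 3 for Ltbp2 (0.454 FPKM).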

How the results depend on the processing

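Of the 16 calls among the TGF-beta and BMP genes, 9 passed in all 12 settings. Scaling moved the counts most, and the cause was not tested. Members higher numbered 10 with geometric scaling and 9 with quantile normalization (9.16% of all tested genes), and members lower 2 in each (9.13% with quantile normalization). Leaving out WT replicate 2, TGAC8 replicate 4 or TGAC8 replicate 5 gave 13 to 15 higher and 0 lower. On the geometric scale, 1 extracellular regulator, 1 intracellular regulator and 1 response gene were lower, 6 cardiomyocyte markers were lower, and 0 platelet and erythroid markers were higher. With quantile normalization, 5 intracellular regulators were higher and 2 lower, 1 response gene was lower, 1 smooth muscle marker was higher, 2 cardiomyocyte markers were higher and 1 lower, and 0 platelet and erythroid markers were higher. The same 3 omissions gave 0 to 1 response genes lower, the 1 being without TGAC8 replicate 5.

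Sign changes came from genes that had no call. With geometric scaling the log2 differences were -0.0987 for Acvr2a, -0.077 for Id1, -0.0755 for Smurf1, -0.0319 for Smad5, -0.107 for Bmpr1a, -0.108 for Ltbp1, -0.0534 for Hfe2, -0.00707 for Timp3, -0.0734 for Cd163, -0.104 for Cdh5 and -0.0567 for Rgs5. With quantile normalization they were -0.154 for Acvr2a, -0.0801 for Id1, -0.105 for Smurf1, -0.0299 for Smad1, -0.0203 for Bmp6, -0.0173 for Tgfbi, -0.0465 for Smad5, -0.113 for Bmpr1a, -0.118 for Ltbp1, -0.0229 for Smad2, -0.117 for Cd163, -0.0229 for Cdh5 and 0.158 for Tnnt2. Over the same 3 omissions they ran from -0.00445 to 0.021 for Acvr2a, -0.00207 to 0.0802 for Id1, -0.0321 to 0.0384 for Bmpr1a, -0.0882 to 0.00975 for Bmp4 and -0.0299 to 0.00352 for Cdh5.

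Libraries with the same number did not deviate together (correlations from -0.0617 to 0.00672 over 8 pairs, 0 of which matched best within the pair). Whether the numbers pair the mice is not given, and correlations near 0 cannot exclude a pairing with little effect on these values. With the replicate block 13 members were higher and 0 lower, Smurf2 passed (adjusted p = 0.0389), and Tgfb3, Smad7, Bmp2k and Tgfbrap1 no longer did. The share of all tested genes called in that fit was not computed, so the 13 cannot be set against it. The 6 ratio results kept their side of the threshold in every setting run. Without counts, the limit that depth sets cannot be given, and Bmper, Acvr2b, Inhba and Ltbp2 lie near or under the filter.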
